A study of Mus musculus with 30 samples.

Results

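The 10 genes followed here encode proteins that coat, fuse, build or guard lipid droplets: Plin2, Plin3, Plin4, Plin5, Cideb, Cidec, Bscl2, Fitm1, Fitm2 and Hilpda. They were chosen by name, with earlier results of these data known. All 10 were present among the 41549 genes of the expression table, of which 25824 were above 0 in at least 1 library. Poly(A) RNA had been sequenced from male mice lacking liver fatty acid-binding protein (LFABP-/-, gene Fabp1) and from wild-type (WT) mice, all on a C57Bl/6J background. From 2 months of age both genotypes ate a diet high in saturated fat, with 45% of its energy as fat, for 12 weeks, and tissues were taken after 4 h without food. The 6 groups were liver, interscapular brown adipose tissue (iBAT) and inguinal white adipose tissue (iWAT) of LFABP-/- mice and the same tissues of WT mice, each with 5 libraries, so that the 30 libraries came from 10 mice. The deletion is carried by every cell of the LFABP-/- mice and is not limited to 1 tissue, and no other diet was analysed here. Values are on the TPM scale (transcripts of a gene relative to all transcripts), which is relative to transcript length and to the total of each library, and are given with 1 decimal. Read numbers behind them are unknown, so no counting error can be given.

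A lipid droplet is a core of triacylglycerol and sterol ester inside a single layer of phospholipid. Perilipins cover this surface and set how far lipases can reach the core: Plin1 and Plin4 are mainly adipocyte genes, Plin2 and Plin3 are found in most tissues, and Plin5 in tissues that burn fat, where it brings droplets close to mitochondria. CIDE proteins gather where droplets touch and let small droplets pass their lipid to large ones. Cidea is the brown fat member, Cideb the liver member, which also loads lipid onto very low density lipoprotein, and Cidec (Fsp27) is the white fat member, needed for the single large droplet of the white adipocyte. Seipin (Bscl2) and the fat storage-inducing transmembrane proteins Fitm1 and Fitm2 act in the endoplasmic reticulum, where droplets start to form, and Hilpda, a small hypoxia-inducible protein, inhibits adipose triglyceride lipase. LFABP binds fatty acids in the cytosol of hepatocytes and enterocytes.

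The libraries had 16470 to 20502 genes above 0. Fabp1 was listed at 51.8, 13.7, 0.3, 0.6 and 0.2 TPM in the 5 LFABP-/- livers, against 9165.5 to 12697.6 TPM in WT livers. Of the tissue markers, all 12 hepatocyte genes were present in liver, with sums of 103006 to 122192 TPM in LFABP-/- mice and 122546 to 144133 TPM in WT mice, and Ucp1, which defines brown fat, was at 5877.5 to 7684.1 TPM in LFABP-/- iBAT and 4243.4 to 5521.7 TPM in WT iBAT. Of the 10 brown fat markers in iBAT, limma called 4 higher and 2 lower in LFABP-/- mice (median log2 difference 0.01). Some libraries also held RNA of other cell types. The 12 hepatocyte markers summed to 202.4 to 2088.1 TPM in LFABP-/- iBAT, against 7.1 to 105.3 TPM in WT iBAT, and all 12 were called higher (median log2 difference 4.05). In iWAT they stood highest in LFABP-/- replicate 1 (2419.6 TPM), which was also the iWAT library with the highest Fabp1 value, 196.1 TPM, above the 51.8 TPM of the highest LFABP-/- liver. Fabp1 itself, the deleted gene, was at 0.4, 2, 21.2, 15 and 13.1 TPM in LFABP-/- iBAT and 1.4, 0.2, 0.4, 5.1 and 8.7 TPM in WT iBAT (log2 difference 1.48, limma adjusted p = 0.276). Which liver the hepatocyte RNA came from was not tested. LFABP-/- iWAT replicate 2 had 962.3 TPM of Ucp1, against at most 32 TPM in the other 9 iWAT libraries. Lymphocyte markers summed to 793.3 to 2907.8 TPM in 5 iWAT libraries (LFABP-/- replicates 2, 3 and 4 and WT replicates 3 and 4) and to 24.6 to 48.1 TPM in the other 5. Skeletal muscle markers summed to 306.1 to 19596.8 TPM in LFABP-/- iBAT and 1710.6 to 45910.9 TPM in WT iBAT. Mitochondrial transcripts made up 56.3% of the LFABP-/- iBAT value and 57.8% of the WT iBAT value on average, so that every other gene of iBAT, on this scale, was measured within what remained. In liver they made up 16.9% to 18.1% in LFABP-/- mice and 12.1% to 15.1% in WT mice, without overlap. In whole tissue, fewer cells of a type and less RNA per cell cannot be told apart.

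Of the 10 genes, Plin2, Plin5 and Cideb have promoters with a motif match before their first listed start, and these 3 windows are shown. They are the 250 bases before the first listed start in RefSeq's GRCm38.p6 annotation, 5′ to 3′ on the gene's strand, which is the minus strand for all 3. Capitals mark motif matches. For Plin2 the window is chr4:86670060-86670309, for Plin5 chr17:56117549-56117798 and for Cideb chr14:55758425-55758674.
Plin2: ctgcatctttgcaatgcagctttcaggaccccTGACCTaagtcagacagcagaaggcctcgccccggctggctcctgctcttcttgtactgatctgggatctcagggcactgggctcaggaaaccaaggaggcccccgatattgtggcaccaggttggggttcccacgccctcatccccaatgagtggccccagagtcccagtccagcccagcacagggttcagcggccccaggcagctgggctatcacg
Plin5: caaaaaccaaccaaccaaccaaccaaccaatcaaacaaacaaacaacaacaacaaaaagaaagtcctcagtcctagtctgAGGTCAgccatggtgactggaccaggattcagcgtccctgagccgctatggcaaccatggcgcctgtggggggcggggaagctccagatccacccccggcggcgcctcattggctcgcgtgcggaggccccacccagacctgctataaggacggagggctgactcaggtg
Cideb: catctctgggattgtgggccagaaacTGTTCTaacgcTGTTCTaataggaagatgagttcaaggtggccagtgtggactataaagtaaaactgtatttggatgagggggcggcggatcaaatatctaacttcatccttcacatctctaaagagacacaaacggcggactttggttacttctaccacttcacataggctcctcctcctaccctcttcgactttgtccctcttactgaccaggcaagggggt
All 10 genes were matched in the RefSeq table, with 15 start windows in all, and each was searched on both strands for AGGTCA (the half-site shared by many nuclear receptors, PPARs among them), CACGTG (the palindromic E-box), ACGTG (the hypoxia response core, which also lies inside CACGTG) and AGAACA (the glucocorticoid receptor half-site). Plin2 had AGGTCA on the opposite strand, bases -218 to -213 from the start, and Plin5 had it on its own strand at -170 to -165. Cideb had AGAACA on the opposite strand at 2 places, -224 to -219 and -213 to -208. Outside the printed windows, Bscl2 had AGGTCA at -202 before its second start and Hilpda had ACGTG at -43 before its second start. Among 32851 promoters of the same length, 14.02% held AGGTCA, 6.02% CACGTG, 16.6% ACGTG and 16.1% AGAACA, and the matches are letters only, with no binding measured.

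The 10 genes had sharply different tissue profiles, and the order of levels was set by the CIDE genes and by Plin4. In both genotypes Cidec was the highest of the 10 in iWAT, followed by Plin4 and Plin2, and Cideb was the lowest. Liver was the other way round for the CIDE genes: Cideb and Plin2 led and Hilpda was lowest in both genotypes. In iBAT, Plin2 led in LFABP-/- mice and Cidec in WT mice. The highest member exceeded the lowest 3435-fold in LFABP-/- iWAT and 7587-fold in WT iWAT, 215.9-fold and 200.6-fold in LFABP-/- and WT iBAT, and 85.9-fold and 80.8-fold in LFABP-/- and WT liver.

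**Figure D1:**
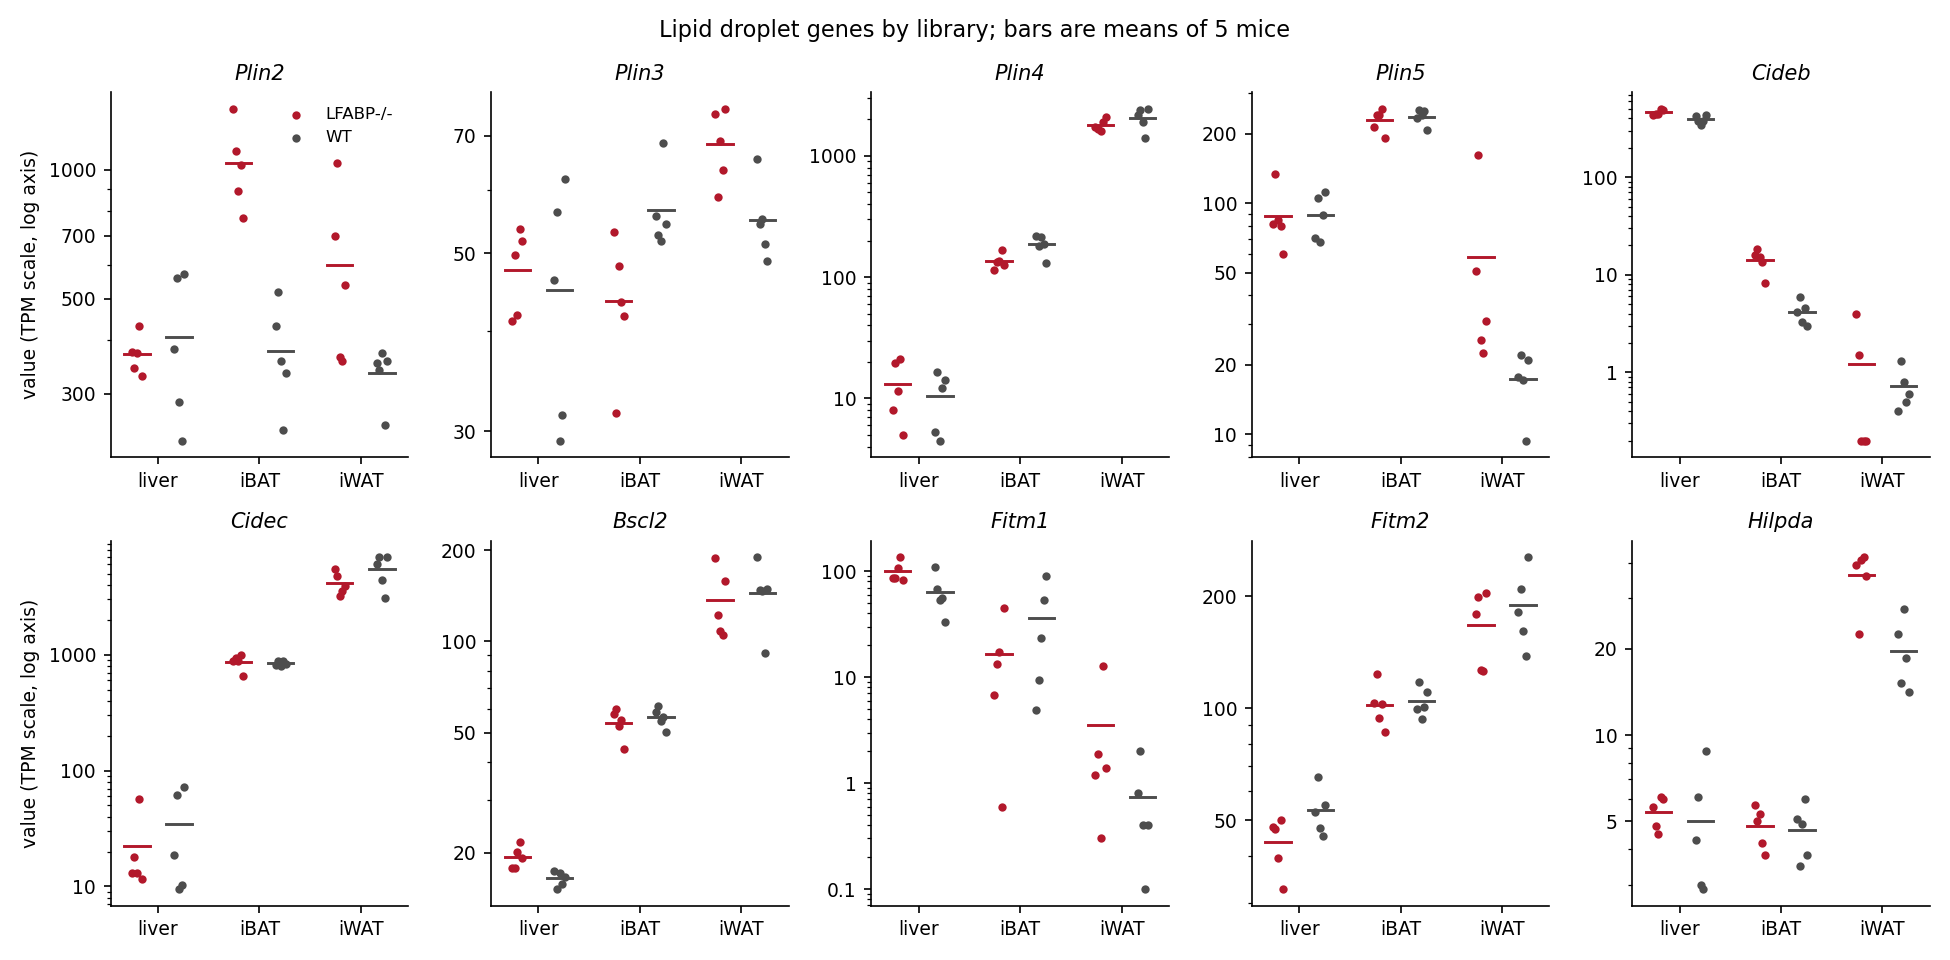
Values of the 10 lipid droplet genes in each library (TPM scale, log axis) in liver, iBAT and iWAT, with LFABP-/- mice in red left of WT mice in grey. Each point is 1 mouse and each bar the mean of 5. The 5 LFABP-/- iBAT points of Plin2 (771.8 to 1388.0) and Cideb (8.2 to 18.3) lie above all 5 WT iBAT points.

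Tissues were compared in 1 limma fit of the 30 libraries on log2(value + 0.5), averaged over both genotypes, with Benjamini-Hochberg adjustment over the 13925 genes tested and calls at an adjusted p under 0.1. Between iBAT and iWAT, 93.2% of all genes were called and all 10 members were, 4 higher and 6 lower in iBAT. Between liver and iWAT, 94.8% of all genes and 9 of the 10 members were called (3 higher and 6 lower in liver), and between liver and iBAT 80.9% of all genes and 8 of the 10 (2 higher and 6 lower in liver). Nearly every gene was called, so these counts say little about the members, and the sizes carry the description. The median gene lay at -1.38 (log2) for iBAT minus iWAT, at -1.26 for liver minus iWAT and at 0.07 for liver minus iBAT, and the values below are to be read against these medians.

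Among the coat genes, Plin4 had a steep gradient. It averaged 13.1 TPM in LFABP-/- liver and 10.5 TPM in WT liver, 135 and 187 TPM in LFABP-/- and WT iBAT, and 1800 and 2062 TPM in LFABP-/- and WT iWAT. The log2 differences were -3.86 ± 0.22 (SE) for liver minus iBAT and -3.60 ± 0.22 for iBAT minus iWAT, with adjusted p of 2.4e-15 and 7.5e-15 by limma. Plin1, the remaining coat gene, had a steeper one (liver minus iWAT -9.48, against -7.45 for Plin4), at 0.8 to 3.0 TPM in the 10 livers, 419.8 to 644.9 TPM in the 10 iBAT libraries and 1064.7 to 1831.3 TPM in the 10 iWAT libraries. Plin5 had its highest levels in iBAT, where it was 3.08 ± 0.24 above iWAT (8.46-fold, limma adjusted p = 9.7e-13), and liver lay between, 1.42 ± 0.24 below iBAT. On this scale Plin2 and Plin3 had smaller differences between tissues. Plin3 stood 0.31 lower in iBAT than in iWAT (adjusted p = 0.0132) and 0.43 lower in liver than in iWAT (adjusted p = 0.000921), and its liver minus iBAT difference of -0.12 (95% interval -0.36 to 0.11) missed the threshold. The direction of Plin3 depended on the scale: after scaling by the median ratio of all genes it was 1.15 higher in iBAT and 0.92 higher in liver than in iWAT. Plin2 was 0.51 higher in iBAT than in iWAT and 0.70 lower in liver than in iBAT (adjusted p = 0.0104 and 0.00108), but in WT mice alone these differences were 0.14 (adjusted p = 0.612) and 0.06 (adjusted p = 0.851). Against the median gene Plin2 stood 1.89 higher in iBAT than in iWAT, and its liver minus iWAT difference of -0.19 (adjusted p = 0.318) became 1.18 with median-ratio scaling (adjusted p = 4.9e-06).

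The CIDE genes divided the tissues most clearly. Cideb averaged 464 ± 31.6 TPM in LFABP-/- liver and 390 ± 36.9 TPM in WT liver (SD, n = 5 each), and was 52.4-fold higher in liver than in iBAT and 349-fold higher than in iWAT. In iWAT it was at or below 1.5 TPM in 9 of 10 libraries. Cidec averaged 4191 ± 919 TPM in LFABP-/- iWAT and 5462 ± 1699 TPM in WT iWAT, which put it 24th and 20th by mean value among the 23006 and 22921 genes above 0 in LFABP-/- and WT iWAT. It was 2.44 lower in iBAT than in iWAT and 7.75 lower in liver than in iWAT on the log2 scale. Cidea, the remaining CIDE gene, made up 76.6% of the summed Cidea, Cideb and Cidec value in LFABP-/- iBAT and 75.6% in WT iBAT. In liver Cideb made up 94.4% in LFABP-/- mice and 91.7% in WT mice, and in iWAT Cidec made up 97.0% in LFABP-/- mice and 99.1% in WT mice.

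The assembly genes of the endoplasmic reticulum differed among themselves. Bscl2 was lowest in liver and highest in iWAT, averaging 19.3 and 16.5 TPM in LFABP-/- and WT liver, 53.8 and 56.2 TPM in LFABP-/- and WT iBAT, and 136.6 and 145.1 TPM in LFABP-/- and WT iWAT. Fitm2 had the same order, with 43.6 and 53.2 TPM in LFABP-/- and WT liver, 101.9 and 104.3 TPM in LFABP-/- and WT iBAT, and 166.8 and 188.7 TPM in LFABP-/- and WT iWAT. Relative to the median gene, Fitm2 was 0.63 higher in iBAT than in iWAT and Bscl2 was at 0.06. With median-ratio scaling the iBAT minus iWAT difference of Fitm2 was 0.71 in place of -0.76, and that of Bscl2 was 0.15 in place of -1.32 and missed the threshold (limma adjusted p = 0.352). Fitm1, the form known for skeletal muscle, ran against Fitm2 and was 47.2-fold higher in liver than in iWAT and 5.15-fold higher in liver than in iBAT (limma adjusted p = 0.000335), although in WT mice alone liver and iBAT differed by 1.39 on the log2 scale (adjusted p = 0.113). It made up 69.3% ± 4.52 of the summed Fitm1 and Fitm2 value in LFABP-/- liver and 52.8% ± 10.7 in WT liver (SD, n = 5 each). Hilpda was highest in iWAT, 2.36 (log2) below it in iBAT and 2.27 below it in liver, while liver and iBAT differed by 0.08 (95% interval -0.24 to 0.41, limma adjusted p = 0.644).

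The main question of the design is what the loss of LFABP changes, and it was tested with limma in each tissue alone, LFABP-/- minus WT. In iBAT, 4 of the 10 members were called, Plin2 and Cideb higher and Plin3 and Plin4 lower, against 47.8% of the 11614 genes tested. In liver 2 of 10 were called, Cideb and Bscl2, both higher, against 16.9% of 11629 genes. In iWAT none of the 9 members tested was called by limma, against 1.45% of 14668 genes. An unadjusted p under 0.05 was reached by 4 of them (Plin2, Plin3, Plin5 and Hilpda), beside 1523 of the 14668 genes. Cideb in iWAT had a mean under 1 TPM and was not tested. The members' shares were thus close to the background in iBAT and liver. Their median log2 difference was -0.05 in iBAT (all genes -0.03), 0.17 in liver (all genes -0.10) and 0.31 in iWAT (all genes 0.05). An exact two-sided permutation test over all assignments of 5 against 5 mice, whose smallest p is 0.0079, placed 10 member and tissue pairs under 0.05 and limma's unadjusted p placed 11, the exception being Fitm1 in liver. Those 11 pairs were 4 in iBAT, 3 in liver and 4 in iWAT. Over all genes, limma's unadjusted p was under 0.05 for 5607 of 11614 in iBAT and 3245 of 11629 in liver.

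**Figure D2:**
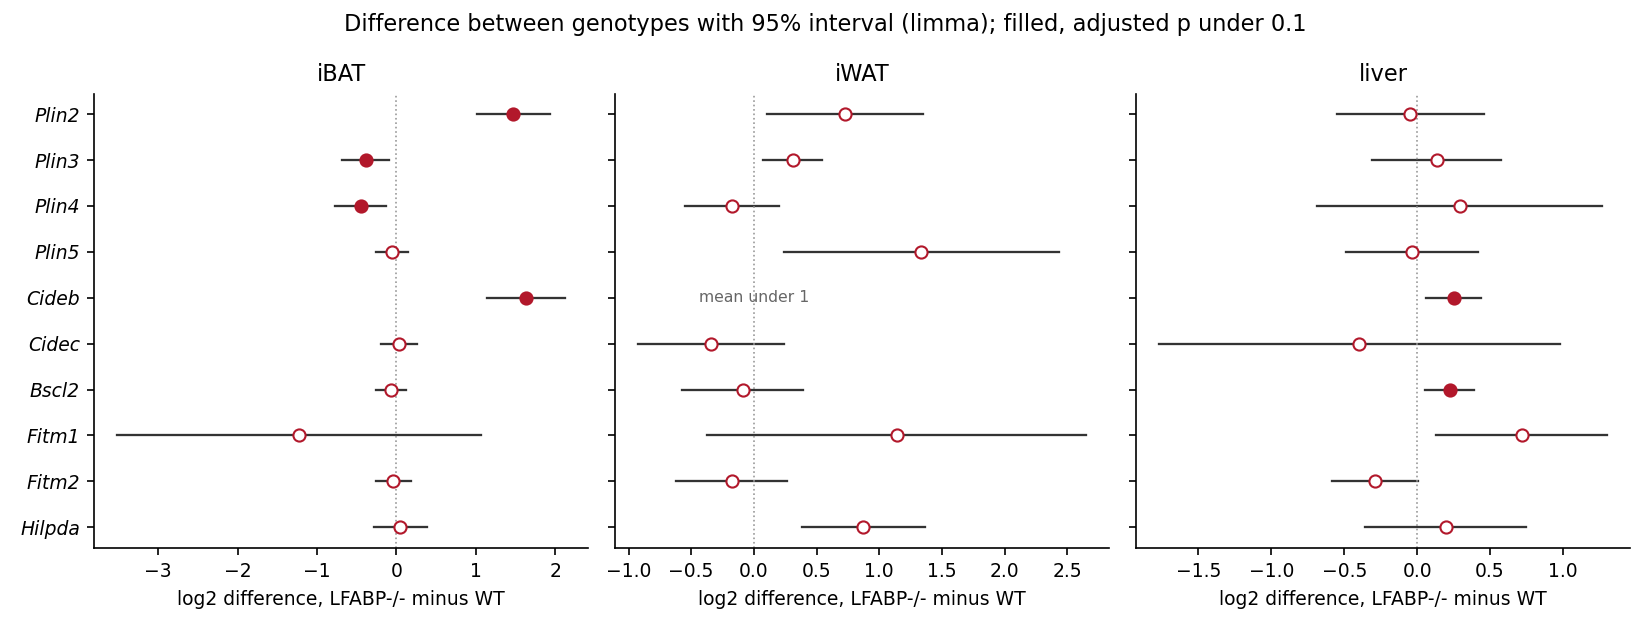
Log2 difference LFABP-/- minus WT of each member in iBAT, iWAT and liver, with its 95% interval from limma. Filled points passed an adjusted p under 0.1: 4 in iBAT, none in iWAT and 2 in liver. The horizontal scales differ between the panels, and Cideb has no point in iWAT.

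Plin2, the coat protein of most non-adipose cells, showed the clearest difference among the perilipins. It was at 1388.0, 1105.1, 889.9, 1027.1 and 771.8 TPM in LFABP-/- iBAT, against 431.8, 517.1, 356.7, 246.5 and 335.4 TPM in WT iBAT. The lowest LFABP-/- mouse lay above the highest WT mouse. The means were 1036 ± 234 TPM in LFABP-/- iBAT and 377.5 ± 102 TPM in WT iBAT (SD, n = 5 each), a 2.77-fold difference (log2 1.47 ± 0.21 SE, limma adjusted p = 0.000592), and Plin2 stood 65th by mean value among the genes of LFABP-/- iBAT and 202nd in WT iBAT. The call held without each of the 10 mice in turn, with log2 differences of 1.33 to 1.59. In iWAT Plin2 had 701.3, 1035.1, 364.6, 356.6 and 537.9 TPM in LFABP-/- mice and 354.4, 341.4, 373.2, 253.1 and 357.0 TPM in WT mice. Here the groups overlapped, 2 LFABP-/- mice lying within the WT range, and the log2 difference of 0.73 ± 0.28 missed the threshold (limma adjusted p = 0.364). The library with the most Plin2 was replicate 2, the one with 962.3 TPM of Ucp1, and without it the difference was 0.50. Replicates 3 and 4, the 2 within the WT range, had the highest lymphocyte marker sums of the LFABP-/- iWAT libraries, 2223.7 and 2040.7 TPM, and with these markers as a covariate the difference was 0.81 (limma adjusted p = 0.118). With brown fat markers as a covariate, added after the data had been seen, it was 0.30 (adjusted p = 0.699). In liver Plin2 had 376.0, 345.2, 372.2, 432.1 and 330.5 TPM in LFABP-/- mice and 380.4, 558.6, 286.7, 233.1 and 569.3 TPM in WT mice. The LFABP-/- livers lay inside the WT range (log2 difference -0.05, 95% interval -0.55 to 0.46). The difference between genotypes itself differed between liver and iBAT, by -1.52 ± 0.36 (limma adjusted p = 0.00698).

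Plin3 and Plin4 moved the other way in iBAT. Plin3, a coat protein that moves between cytosol and young droplets, had 53.2, 31.6, 48.2, 43.4 and 41.7 TPM in LFABP-/- iBAT and 55.7, 52.7, 51.7, 68.5 and 54.3 TPM in WT iBAT. Only LFABP-/- replicate 1 reached the WT range, and Plin3 fell by 0.38 ± 0.13 on the log2 scale (adjusted p = 0.0419, limma). Plin4, the coat protein of small adipocyte droplets, had 114.9, 134.4, 135.0, 166.4 and 125.3 TPM in LFABP-/- iBAT and 217.9, 180.2, 215.8, 187.6 and 131.0 TPM in WT iBAT. WT replicate 5 was the 1 WT library inside the LFABP-/- range, and Plin4 fell by 0.45 ± 0.15 (adjusted p = 0.0318, limma), a call that was lost with 1 spread shared by all 30 libraries (adjusted p = 0.330). With hepatocyte markers as a covariate, added after the data had been seen, the Plin4 difference was -0.19 (adjusted p = 0.747) and that of Plin3 was -0.43 (adjusted p = 0.432). Summed adipocyte markers were lower in LFABP-/- iBAT without overlap, 3610.7 to 4406 TPM against 6011.2 to 7154.3 TPM in WT iBAT. Of the 12 markers, 6 were called lower and 0 higher by limma, beside 47.8% of all genes called in iBAT. Their median log2 difference was -0.17 (all genes -0.03), and their part in the Plin4 difference was not tested. In iWAT, Plin3 had 74.6, 58.8, 69.0, 63.4 and 75.7 TPM in LFABP-/- mice and 65.6, 54.3, 55.1, 51.4 and 48.9 TPM in WT mice, 0.31 ± 0.10 higher and short of the threshold (adjusted p = 0.278, limma), which it passed with lymphocyte markers as a covariate (0.35, adjusted p = 0.0723). The genotype difference of Plin3 in iBAT minus that in iWAT was -0.69 ± 0.23 (adjusted p = 0.0611), beside 12.3% of all genes called and 3 of the 10 members. That call was lost without LFABP-/- iBAT replicate 2 (0.136), WT iBAT replicate 4 (0.123) or WT iWAT replicate 5 (0.104), all adjusted p by limma. Plin4 spanned 1607.9 to 2106.1 TPM in LFABP-/- iWAT and 1399.1 to 2452.6 TPM in WT iWAT, a log2 difference of -0.17 with an interval of -0.55 to 0.20.

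Plin5, the perilipin that links droplets to mitochondria, was even in the tissue where it is highest. In iBAT it spanned 191.7 to 256.3 TPM in LFABP-/- mice and 206.1 to 253.9 TPM in WT mice, a log2 difference of -0.06 with an interval of -0.25 to 0.14. In iWAT it had 50.7, 162.2, 25.7, 22.5 and 30.8 TPM in LFABP-/- mice and 17.7, 22, 17.1, 9.4 and 20.9 TPM in WT mice. All 5 LFABP-/- values lay above all 5 WT values (exact permutation p = 0.0079), but the spread in LFABP-/- mice was wide (mean 58.4 ± 59.1, against 17.4 ± 4.94 TPM in WT mice, SD, n = 5 each) and the log2 difference of 1.34 ± 0.50 was not called by limma over all genes (adjusted p = 0.334). Replicate 2 decided much of its size: without it the log2 difference was 0.86 (adjusted p = 0.317). That mouse's iWAT also held the most Cidea of the iWAT libraries, 393.6 TPM against 24.2 to 110.4 TPM in the other 9. Brown fat markers summed to 283.9 to 2650.3 TPM in LFABP-/- iWAT and 185.6 to 706.4 TPM in WT iWAT, and with them as a covariate, an alternative chosen after the data had been seen, the Plin5 difference was 0.43 (adjusted p = 0.562). The genotype difference of Plin5 in iBAT minus that in iWAT was -1.39 ± 0.47 (adjusted p = 0.0703, limma), and it missed the threshold without LFABP-/- iBAT replicate 1 or 2 or WT iBAT replicate 4 (adjusted p = 0.102 to 0.110). Liver Plin5 spanned 60.0 to 134.0 TPM in LFABP-/- mice and 68.0 to 112.0 TPM in WT mice.

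The make-up of the summed perilipin transcripts differed between genotypes in iBAT. No protein was measured. Of the summed Plin1 to Plin5 value, Plin2 made up 51.4% ± 5.17 in LFABP-/- iBAT and 27.1% ± 4.58 in WT iBAT (SD, n = 5 each), while, in LFABP-/- and WT iBAT in turn, Plin1 made up 28.1% and 37.9%, Plin5 11.5% and 17.3%, Plin4 6.85% and 13.5%, and Plin3 2.20% and 4.18%. The sum averaged 2002 TPM in LFABP-/- iBAT and 1381 TPM in WT iBAT. Plin1 itself did not pass the test in iBAT (455.0 to 644.9 TPM in LFABP-/- mice and 419.8 to 624.7 TPM in WT mice, log2 difference 0.10, limma adjusted p = 0.554). In iWAT, Plin4 and Plin1 together dominated in both genotypes (45.4% and 36.9% in LFABP-/- mice, 52.1% and 37.4% in WT mice), and Plin2 made up 14.6% ± 5.53 in LFABP-/- mice and 8.61% ± 0.991 in WT mice. In liver the shares were close, with Plin2 at 71.3% and 72.6%, Plin5 at 16.8% and 16.9% and Plin3 at 9.19% and 8.20% in LFABP-/- and WT mice.

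**Figure D3:**
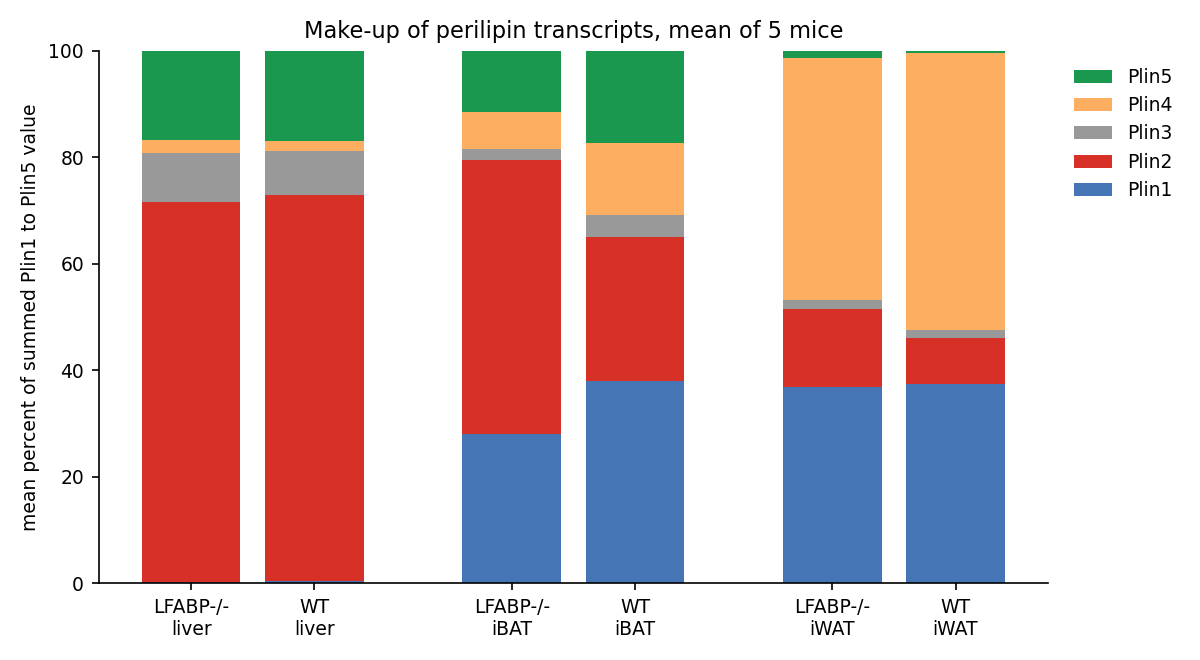
Mean percent of the summed Plin1 to Plin5 value contributed by each perilipin in liver, iBAT and iWAT of LFABP-/- and WT mice (means of 5 mice, stacked to 100%). The Plin2 block fills 51.4% of the LFABP-/- iBAT column and 27.1% of the WT iBAT column.

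Ratios within a library do not depend on how that library was scaled. Of 21 ratio and tissue pairs compared, 11 had an adjusted p under 0.1 by the exact permutation test, 6 in iBAT, 4 in iWAT and 1 in liver. Ratios of other genes were not computed, so this count has no background. In iBAT 47.8% of all genes were called between genotypes by limma. In iBAT the log2 ratio of Plin2 to Plin1 averaged 0.87 in LFABP-/- mice and -0.50 in WT mice, so Plin2 outweighed Plin1 in each LFABP-/- mouse and in no WT mouse. The ratios of Plin5, Plin4 and Plin3 to Plin2 were lower in LFABP-/- iBAT by 1.53, 1.92 and 1.86, and that of Cidec to Plin2 by 1.44. None of these iBAT ratios overlapped between genotypes (adjusted p = 0.0208 each, exact permutation test). All of them share Plin2, so they are not separate results. The other iBAT ratio that passed, Cidec to Cideb, was lower in LFABP-/- iBAT by 1.60 without overlap (adjusted p = 0.0208, exact permutation test). It holds Cideb, whose iBAT values are set beside the hepatocyte markers below. In iWAT the ratio of Plin2 to Plin1 averaged -1.41 in LFABP-/- mice and -2.13 in WT mice, a difference of 0.72, and that of Cidec to Plin2 averaged 2.9 in LFABP-/- mice and 3.97 in WT mice, a difference of -1.07. Both were without overlap (adjusted p = 0.0208 each, exact permutation test), although neither Plin2 nor Cidec passed the test over all genes in iWAT. Plin4 to Plin2 differed by -0.90 in iWAT with overlap (adjusted p = 0.0370, exact permutation test). Plin5 to Plin2 differed by 0.61 (adjusted p = 0.0758, exact permutation test), a result lost without any 1 of 6 of the 10 mice (adjusted p = 0.106 to 0.167).

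**Figure D4:**
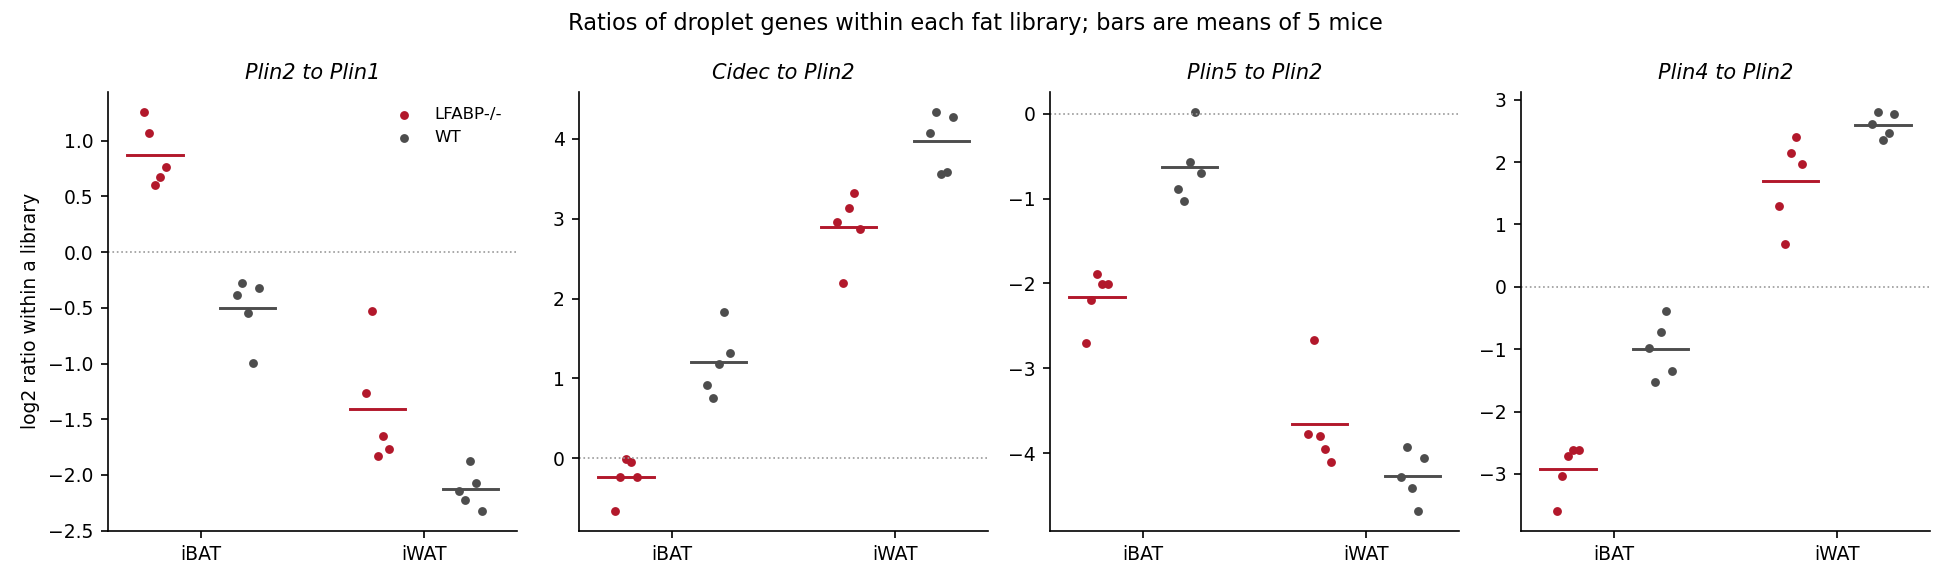
Log2 ratios within each fat library for Plin2 to Plin1, Cidec to Plin2, Plin5 to Plin2 and Plin4 to Plin2 in iBAT and iWAT, with LFABP-/- mice in red left of WT mice in grey, 1 point per mouse and bars for means of 5. The Plin2 to Plin1 points of LFABP-/- iBAT lie above 0 (0.60 to 1.26) and those of WT iBAT below 0 (-0.99 to -0.27).

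Cideb, the liver CIDE gene, showed the largest fold of the 10 between genotypes in iBAT. It had 16, 18.3, 15.1, 13.6 and 8.2 TPM in LFABP-/- iBAT, against 4.2, 5.9, 3.3, 4.6 and 3.0 TPM in WT iBAT. Every LFABP-/- value exceeded every WT value, with means of 14.2 ± 3.78 TPM in LFABP-/- iBAT and 4.2 ± 1.15 TPM in WT iBAT (SD, n = 5 each), a 3.11-fold difference on the log2(value + 0.5) scale (log2 1.64 ± 0.22, limma adjusted p = 0.00049). Cideb still made up 0.374% of the CIDE value in LFABP-/- iBAT and 0.119% in WT iBAT. Hepatocyte markers were also higher in LFABP-/- iBAT. By the median of the 12 markers, LFABP-/- iBAT libraries held 1.22%, 1.86%, 1.56%, 0.299% and 0.178% of the level in LFABP-/- liver, against 0.00258% to 0.0760% of the WT liver level in WT iBAT libraries. All 5 LFABP-/- libraries had a higher marker level than every WT library. Within LFABP-/- iBAT the highest and lowest Cideb values (18.3 and 8.2 TPM) went with the highest and lowest marker levels. Within WT iBAT it was the reverse, with 5.9 TPM of Cideb at 0.00258% and 3.0 TPM at 0.0760%. The liver that these percentages should be set against is not known. With liver of the same genotype, taking off the Cideb that each percentage would bring left 7.37 to 12.2 TPM in LFABP-/- iBAT. In WT iBAT it left 2.70 to 5.89 TPM. The part of hepatocyte RNA in the Cideb difference was not tested. With the markers as a covariate in iBAT, a setting added after the data had been seen, the log2 difference of Cideb was 1.20 (adjusted p = 0.176, limma) and that of Plin2 1.4 (adjusted p = 0.131), none of the 10 members was called and 419 genes were called in all. Plin2 and Cideb had unadjusted limma p-values of 0.00863 and 0.0184 in that fit, in which marker level and genotype nearly coincide, and the part of hepatocyte RNA in the Plin2 difference was not tested further. Cideb overlaps Nop9 on the opposite strand by 1451 bases in GENCODE M21, and without strand their reads cannot be told apart in that stretch. Nop9 itself had 5.6 to 7.1 TPM in LFABP-/- iBAT and 5.6 to 6.3 TPM in WT iBAT.

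**Figure D5:**
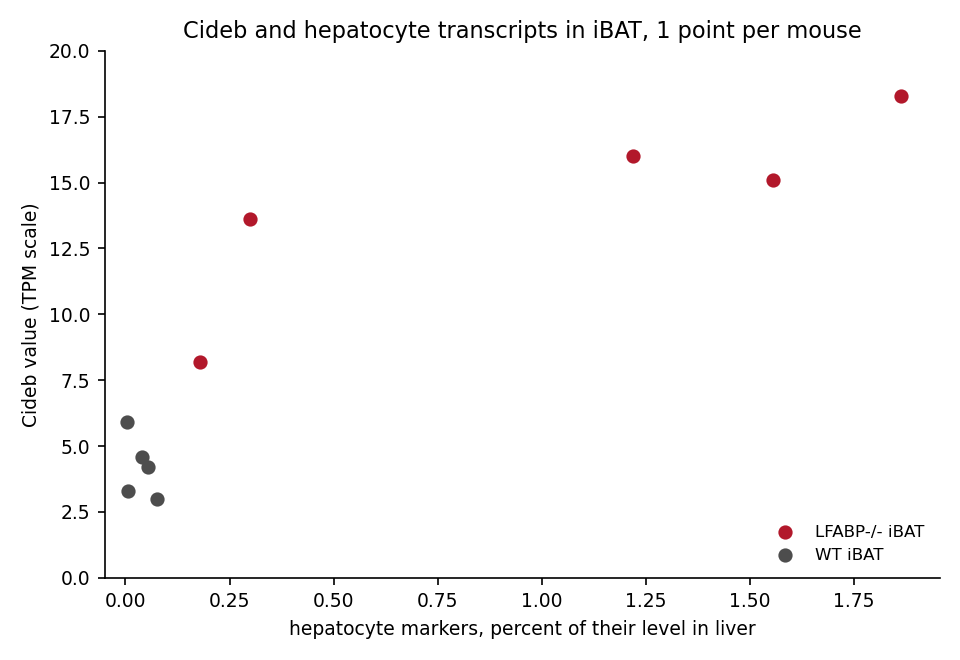
Cideb value (TPM scale) of each iBAT library against its hepatocyte marker level, in percent of the level in liver of the same genotype. Each point is 1 mouse, LFABP-/- in red and WT in grey. The 5 LFABP-/- points are higher than the 5 WT points on both axes (Cideb at 8.2 to 18.3 against 3.0 to 5.9 TPM).

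In liver, Cideb was at 431.3, 445.4, 447.0, 503.5 and 490.9 TPM in LFABP-/- mice and 424.2, 378.8, 339.1, 380.1 and 428.3 TPM in WT mice. The groups did not overlap (exact permutation p = 0.0079), and Cideb rose by 0.25 ± 0.09 on the log2 scale (1.19-fold, limma adjusted p = 0.0899). This call was close to the threshold and held without WT replicate 1 or 5 but was lost without any other mouse (adjusted p up to 0.196), and it was lost with no filter on low values (adjusted p = 0.143) or with 1 spread for all 30 libraries (adjusted p = 0.791). The liver minus iBAT difference of the genotype effect was -1.39 ± 0.49 for Cideb (adjusted p = 0.0630), and Cideb and Plin2 were the 2 of 10 members called there, beside 17.3% of all genes. It was lost without LFABP-/- iBAT replicate 1 or 2 or WT iBAT replicate 3 or 5 (adjusted p = 0.105 to 0.116, limma). Between iBAT and iWAT the genotype effect of Cideb differed by 1.55 ± 0.49 (adjusted p = 0.0490), on iWAT values of 4.0, 1.5, 0.2, 0.2 and 0.2 TPM in LFABP-/- mice and 0.4, 1.3, 0.8, 0.5 and 0.6 TPM in WT mice, near the lowest step of the table. Without LFABP-/- iWAT replicate 3 or 4, or WT iWAT replicate 2, its adjusted p was 0.1003 to 0.1064. For liver minus iWAT none of the 10 members was called by limma, beside 3.92% of all genes. An unadjusted p under 0.05 was found for 3 of them (Plin2, Plin5 and Hilpda), beside 2067 of 13925 genes.

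Cidec, the fusion protein of white adipocytes, did not differ beyond its spread in any tissue. It had 5470.6, 4760.3, 3203.5, 3571.9 and 3950.1 TPM in LFABP-/- iWAT and 6000.4, 6913.8, 4393.9, 3055.2 and 6948.6 TPM in WT iWAT, overlapping over most of their range (log2 difference -0.34, interval -0.93 to 0.24). In iBAT it spanned 656.1 to 993.9 TPM in LFABP-/- mice and 806.4 to 882.1 TPM in WT mice (log2 difference 0.03, limma adjusted p = 0.820), with LFABP-/- replicate 5 lowest. Without that mouse Cidec was called higher in iBAT (0.13, adjusted p = 0.0871). In liver, Cidec had 13, 17.8, 13.1, 56.4 and 11.7 TPM in LFABP-/- mice and 18.6, 61.2, 9.5, 10.2 and 72.7 TPM in WT mice. LFABP-/- replicate 4 and WT replicates 2 and 5 stood far above the rest of their genotype, and the interval of the difference was wide (-1.77 to 0.98). The same livers led for other coat genes: WT replicates 2 and 5 had the highest WT values of Plin2, Plin3, Plin4, Plin5, Cidec and Hilpda, and LFABP-/- replicate 4 had the highest LFABP-/- values of Plin2, Plin3, Plin4, Cidec and Hilpda. Macrophage markers summed to 1102.2 TPM in WT liver replicate 5 and 436.7 TPM in WT liver replicate 2, against 287.6 to 464.6 TPM in LFABP-/- livers. Their part in these values was not tested.

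The assembly genes gave 1 call. Seipin (Bscl2) had 17.9, 17.8, 20.1, 21.7 and 19.2 TPM in LFABP-/- liver and 17.5, 15.2, 17.2, 15.8 and 16.7 TPM in WT liver. Every LFABP-/- liver was above every WT liver, and Bscl2 rose by 0.22 ± 0.08 on the log2 scale (1.17-fold, limma adjusted p = 0.0919). The call held without LFABP-/- replicate 2 or WT replicate 1 and was lost without any other mouse (adjusted p up to 0.215), and it was lost with no filter on low values (adjusted p = 0.137) or with 1 spread for all 30 libraries (adjusted p = 0.438). In the fat depots Bscl2 did not pass the test, with log2 differences of -0.07 in iBAT (interval -0.26 to 0.13) and -0.09 in iWAT (interval -0.57 to 0.39). Bscl2 shares 3671 bases with AC129217.1 on the same strand and 1728 bases with Gng3 on the opposite strand, so its value may include reads of the first, while Gng3 was at 2.14 TPM or less in every group mean.

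Fitm1 and Fitm2 pull newly made triacylglycerol into droplets. Fitm1 in liver had 86.7, 86.0, 107.8, 135.5 and 82.8 TPM in LFABP-/- mice and 110.2, 68.2, 53.0, 55.5 and 33.2 TPM in WT mice. WT replicate 1 lay among the LFABP-/- livers and the other 4 WT livers below them, and the log2 difference of 0.72 ± 0.27 missed the threshold (limma adjusted p = 0.110), which it passed without WT replicate 1 (0.94, adjusted p = 0.0343). Fitm2 in liver had 48.1, 47.4, 39.7, 50.2 and 32.7 TPM in LFABP-/- mice and 52.5, 65.4, 47.7, 45.3 and 54.9 TPM in WT mice, a log2 difference of -0.29 ± 0.13 (limma adjusted p = 0.191). Within the same livers the log2 ratio of Fitm1 to Fitm2 averaged 1.18 ± 0.30 in LFABP-/- mice and 0.17 ± 0.63 in WT mice, a difference of 1.006 with overlap (exact permutation test, n = 5 each, adjusted p = 0.05).

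In iBAT Fitm1 spread widely, with 6.8, 13.3, 17.2, 0.6 and 44.4 TPM in LFABP-/- mice and 4.9, 9.3, 23.2, 53.9 and 89.3 TPM in WT mice. Skeletal muscle actin, Acta1, put the 10 iBAT libraries in exactly the same order, with 565.0, 1426.2, 1677.1, 59.7 and 3879.1 TPM in LFABP-/- iBAT and 391.8, 994.2, 1804.2, 4804.5 and 9720.9 TPM in WT iBAT. In iWAT the library with the most Fitm1, LFABP-/- replicate 4 at 12.7 TPM, was also the one with the most Acta1, 1454.2 TPM. The fitted iBAT difference was -1.22 ± 1.03 (limma adjusted p = 0.378), and adding the muscle markers to the fit, a setting chosen after the data had been seen, gave -0.20 (adjusted p = 0.331). Fitm2 in fat spanned 86.2 to 123.8 TPM in LFABP-/- iBAT and 93.3 to 117.8 TPM in WT iBAT, and 126.2 to 204.0 TPM in LFABP-/- iWAT and 137.8 to 254.4 TPM in WT iWAT, and passed the test in neither.

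Hilpda, the inhibitor of adipose triglyceride lipase, had 39.3, 22.6, 40.8, 41.8 and 36.0 TPM in LFABP-/- iWAT and 22.6, 15.2, 27.6, 18.6 and 14.1 TPM in WT iWAT. Of the 5 LFABP-/- libraries, 4 lay above every WT library, and replicate 2, the one with Ucp1, lay within the WT range. The means were 36.1 ± 7.86 TPM in LFABP-/- iWAT and 19.6 ± 5.56 TPM in WT iWAT (SD, n = 5 each), and the log2 difference of 0.87 ± 0.22 missed the threshold over all genes (limma adjusted p = 0.136, exact permutation p = 0.0238). Without LFABP-/- replicate 2 it was 1.03 and passed (adjusted p = 0.0736), as it did with lymphocyte markers as a covariate (0.84, adjusted p = 0.0640). In iBAT Hilpda was at 3.8 to 5.7 TPM in LFABP-/- mice and 3.5 to 6.0 TPM in WT mice, and in liver at 4.5 to 6.1 TPM in LFABP-/- mice and 2.9 to 8.8 TPM in WT mice. The genotype effect of Hilpda in iBAT minus that in iWAT was -0.83 ± 0.32 (limma adjusted p = 0.118).

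The members were set beside the rest of the droplet machinery. Of 22 other coat and CIDE genes tested in iBAT, 10 were called higher and 3 lower (median log2 difference 0.20, all genes -0.03), among them the caveolar protein Cav1 (0.57, adjusted p = 0.000763), lanosterol synthase Lss (0.73, adjusted p = 0.000929), Mettl7a1 (-0.80, adjusted p = 0.0001) and Tmem159, the seipin partner (-0.74, adjusted p = 0.000186), all by limma. Of 19 genes of droplet formation at the endoplasmic reticulum, which also include Tmem159, 8 were higher and 4 lower (median -0.10). Dgat1, which makes triacylglycerol, rose by 0.97 ± 0.10 (adjusted p = 0.000152), Agpat2, which makes phosphatidic acid, by 1.08 ± 0.12 (adjusted p = 0.000215) and the vesicle coat GTPase Arf1 by 0.20 ± 0.05 (adjusted p = 0.00949). Of 13 lipolysis genes 4 were higher and 0 lower by limma (median 0.21): the carboxylesterases Ces3a (3.45) and Ces1d (0.19), the esterase Aadac (2.71) and lysosomal acid lipase Lipa (0.59). Ces3a and Aadac are hepatocyte genes, and the hepatocyte markers given above were also higher in LFABP-/- iBAT. The part of hepatocyte RNA in the calls of this list and the next was not tested. Of 25 PPAR target genes 12 were higher and 4 lower in iBAT (median 0.30), with the hormone Fgf21 at 4.74 ± 0.35 (adjusted p = 3.5e-05), the thioesterase Acot2 at 1.95, the thiolase Acaa1b at 1.15 and the lipoprotein lipase inhibitor Angptl4 at -0.73. With 47.8% of all genes called in this depot, nothing particular to these lists is read from the counts.

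In liver, where 16.9% of all genes were called and most of them lower, the same lists had the following calls. Of 22 coat and CIDE genes 1 was higher (Ubxn4, 0.30) and 3 lower (the retinal reductase Dhrs3, -0.27, Mettl7a1, -0.22, and Faf2, -0.23), and of 20 formation genes 1 was higher (Agpat2, 0.35 ± 0.10, adjusted p = 0.0476) and 3 lower (Snx14, -0.46, Spast, -0.34, and Vps13a, -0.32). Of 13 lipolysis genes 2 were lower and 0 higher by limma: adipose triglyceride lipase itself, Pnpla2, fell by 0.63 ± 0.18 (adjusted p = 0.0520) and Lipa by 0.47 ± 0.12 (adjusted p = 0.0381). Of 24 PPAR targets 0 were higher and 2 lower, the carnitine palmitoyltransferase Cpt1a (-0.50) and Acot1 (-1.06). Nothing particular to these lists is read from the liver counts either. In iWAT, where 1.45% of all genes were called, the first 3 lists held no call by limma. Their smallest p belonged to Hsd17b11 (-0.31, adjusted p = 0.195), Agpat2 (0.97, adjusted p = 0.136) and Lipa (-0.52, adjusted p = 0.255), and of 23 PPAR targets the pantetheinase Vnn1 alone was called (-1.25 ± 0.21, adjusted p = 0.0350).

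Genes whose pattern was most like each member's were picked by Pearson correlation of log2 values over the 30 libraries, which come from 10 mice and share depot composition. By level, Plin4 was closest to Apol6 and Rapgef3 (r = 0.991 and 0.990), Cidec to the fatty acid transporter Cd36 and to Reep5 (0.990 and 0.989), Cideb to Dnajc22 and Slc47a1 (0.994 and 0.989) and Bscl2 to Capn2 and Cd151 (0.989 each). Plin5 was closest to glycerol kinase, Gk, and Slc25a34 (0.964 and 0.960), Fitm1 to Hjv and Csrp3 (0.984 and 0.949), Fitm2 to Marchf5 and Dolk (0.979 and 0.977) and Hilpda to Rbms1 and Fbxo25 (0.970 and 0.969). Plin2 and Plin3 had no close match, with Mrps18b and Srxn1 at 0.860 and 0.847 and Mknk2 and Mrpl36 at 0.760 and 0.756. These values mostly follow tissue. Over deviations from the 6 group means, which leave only differences between mice of a group, Plin2 was closest to the lactate and ketone body transporter Slc16a1 (0.914) and to Cox19 (0.843), and Plin5 to the fatty acid oxidation genes Hadhb and Acadvl (0.934 and 0.896). Slc16a1 had 154.8 to 237.1 TPM in LFABP-/- iBAT and 64.6 to 113.9 TPM in WT iBAT, so that its groups, like those of Plin2, did not overlap there. LFABP-/- iWAT replicate 2, the iWAT library with the most Ucp1, had the highest iWAT values of Plin2, Plin5, Slc16a1 and Hadhb. They were 1035.1, 162.2, 72.5 and 287 TPM. The part of this library in these correlations, and in that of Plin2 with Plin5 below, was not tested. Cidec varied most like Gpat3 and Cd36 (0.857 and 0.852), Plin3 like Rit1 and Flot1 (0.795 and 0.778), and Plin4 like Adcy6 and Sh3d21 (0.824 and 0.753). Fitm1 varied most like the muscle genes Trdn and Klhl31 (0.962 and 0.956) and Cideb like the liver genes Cpn2 and Acox2 (0.891 and 0.868). Bscl2 followed Sod2 and Tmem205 (0.923 and 0.906), Fitm2 followed Cluh and Pex14 (0.874 and 0.866), and Hilpda followed Minpp1 and Armcx3 (0.873 and 0.842). Among the members themselves, the closest pairs by deviation were Plin3 and Hilpda (0.722), Plin4 and Cidec (0.674) and Plin2 and Plin5 (0.661).

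On the genome, in GRCm38, Plin4 (chr17:56100591-56109803), Plin5 (chr17:56111601-56117596) and Plin3 (chr17:56277476-56292873) lie on the minus strand of 1 stretch of chromosome 17. Plin4 and Plin5 are 1797 bases apart and Plin3 is 159879 bases further on, and Plin4 was highest in iWAT and Plin5 in iBAT, while the order for Plin3 depended on the scale. Fitm1 (chr14:55575617-55576954, plus strand) and Cideb (chr14:55754050-55758458, minus strand), both highest in liver, are 177095 bases apart. Plin2 lies at chr4:86648386-86670060, Cidec at chr6:113424634-113435760, Hilpda at chr6:29272488-29275446, Bscl2 at chr19:8837467-8848683 and Fitm2 at chr2:163466379-163472629. Plin4 and Hdgfl2 overlap by 17 bases on opposite strands, Fitm1 and Gm15932 by 375, and Fitm2 and 2310001K24Rik by 673, with the partners of Fitm1 and Fitm2 at 0.58 and 8.26 TPM or less in every group mean.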

How the data were processed

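Poly(A) RNA libraries of liver, iBAT and iWAT from 10 mice (5 LFABP-/- and 5 WT, 30 libraries) were analysed. Per the study's methods, single reads were mapped with CLC Genomics Workbench to GRCm38 and Ensembl gene models by the authors. The deposited values carry an RPKM header but sum to 999967.3 to 999996.4 in each library, so they were read as TPM rounded to 1 decimal by the authors. No read counts were used, depth is unknown, and strand use in counting is not given in the sources used here. Samples were grouped by the genotype and tissue in their labels, and all value columns were used. The members and gene lists were chosen with earlier results of these data known.

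Values were analysed as log2(value + 0.5), keeping genes with a mean of at least 1, with limma 3.58.1 in R 4.3.3 (empirical Bayes with intensity trend, Benjamini-Hochberg adjustment over all genes tested, calls at an adjusted p under 0.1). Genotypes were tested within each tissue (10 libraries), and tissues and differences between genotype effects in 1 fit of 6 groups (30 libraries). The main fit of 30 libraries treated them as independent, although they came from 10 mice. Fold changes are on this scale and understate the change of low genes. Exact two-sided permutation tests over all assignments of 5 mice to each genotype were used for single values and for 21 ratios (numpy 2.4.6). Calls were checked on simulated data. All 10 members were named, with Plin1, Cidea and Fabp1, up to 4 called genes of smallest p per list and tissue (1 gene where none was called) and the 2 named genes of highest correlation per member, while Ucp1, Acta1 and Nop9 were named as markers or overlapping genes after their values were seen.

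Alternatives were pseudocounts of 0.1 and 1, no filter, a mean of at least 20, median-ratio scaling, rescaling without mitochondrial and the top 10 genes, and no trend. Others were a term for the first part of the library name, marker covariates and leaving out each mouse. That first part was assigned by mouse, since some iWAT names carried another one. Genotype fits within a tissue were also blocked on the replicate number, and the fit of 30 libraries on the mouse (correlation -0.016). Hepatocyte and muscle covariates in iBAT, and brown fat and adipocyte covariates in iWAT, were chosen after seeing the data. Across genotypes, same-numbered samples correlated at -0.474 to 0.465 in iBAT, -0.331 to 0.678 in iWAT (median 0.541) and -0.048 to 0.127 in liver. These correlations cannot show whether the numbers pair mice, since same-numbered iWAT libraries mostly also shared a high or low lymphocyte marker sum. The labels give no pairing of mice across genotypes. Promoters were taken from RefSeq (GRCm38.p6) and overlaps from GENCODE M21. The authors' processing gives shares of each library's total, so a gene's value also moves with the most abundant transcripts. The replicates are separate mice.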

Additional observations from a re-analysis of the deposited data

Results flagged for a closer look

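In 5 of 60 groups of 5 mice, 1 library lay farther from its neighbours than Dixon's 95% limit for 5 values allows, where chance gives about 1 in 20 groups. Plin2 was lowest in WT iWAT replicate 4 (253.1 TPM, the other 4 at 341.4 or more), the iWAT library with the highest lymphocyte marker sum, 2907.8 TPM. Plin3 was highest in WT iBAT replicate 4 (68.5 TPM, the others at 55.7 or less). Plin5 was highest in LFABP-/- iWAT replicate 2 (162.2 TPM, the others at 50.7 or less), the library with the most Ucp1. Cidec was highest in LFABP-/- liver replicate 4 (56.4 TPM, the others at 17.8 or less). Fitm1 was highest in LFABP-/- iWAT replicate 4 (12.7 TPM, the others at 1.9 or less), the iWAT library with the most Acta1.

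The genotype difference itself differed between tissues for 5 pairs by limma's interaction term. Between iBAT and iWAT these were Plin3 (-0.69, adjusted p = 0.0611), Plin5 (-1.39, adjusted p = 0.0703) and Cideb (1.55, adjusted p = 0.0490). Between liver and iBAT they were Plin2 (-1.52, adjusted p = 0.00698) and Cideb (-1.385, adjusted p = 0.0630). Plin2 was the only one of the 5 that passed without each of the 30 libraries in turn (adjusted p = 0.00286 to 0.0175).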

How the results depend on the processing

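Read numbers are unknown, values carry 1 decimal, and 5 mice per group with many abundant mitochondrial transcripts limit what small or low-level differences can show. Plin2 and Cideb in iBAT kept their call under every alternative that tested them except the hepatocyte covariate (Cideb was not tested at a mean of at least 20). Plin3 and Plin4 in iBAT were lost with that covariate (adjusted p = 0.432 and 0.747), and Plin4 also in 1 fit of all libraries (0.330). Calls in liver, in iWAT and for differences between genotype effects also rested on the setting. The cause was not tested.

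Members called between genotypes numbered 4 in iBAT and 0 with hepatocyte markers as a covariate. In iWAT, where none was called in the main test, rescaling without mitochondrial and top genes gave 1, the replicate block gave 1 (Hilpda, adjusted p = 0.0544), lymphocyte markers 2, brown fat markers 1, adipocyte markers 3 and 1 fit of all libraries 2 (Plin5, 0.0218, and Hilpda, 0.0267). In liver the 2 calls became 0 with no filter, the replicate block or 1 fit of all libraries, and 1 with a mean of at least 20, no intensity trend or a term for the library prefix. The labels give no pairing of mice across genotypes by replicate number, and the replicate block left 4 calls in iBAT. Genotype effects that differed numbered 3 between iBAT and iWAT, against 1 with median-ratio scaling, and 2 between liver and iBAT, against 1 with a pseudocount of 0.1 or no filter. Calls between tissues stayed at 10, 9 and 8 without each library in turn and with the mouse as a block, and of the ratios 10 to 12 passed without each mouse in turn. Over all genes, the liver split of 358 higher and 1611 lower became 1160 and 837 with median-ratio scaling, and 548 and 1235 after rescaling, and the iBAT split of 2595 and 2961 became 3295 and 2616 with median-ratio scaling. Genes called between genotypes numbered 213 in iWAT, against 135 with no filter, 135 with a mean of at least 20, 100 with median-ratio scaling, 1200, 54, 38 and 1149 with lymphocyte, muscle, brown fat and adipocyte markers and 807 in 1 fit of all libraries. They numbered 5556 in iBAT, against 419 with hepatocyte markers, and 1969 in liver, against 1258 with the replicate block. With a mean of at least 20, which leaves fewer genes to test, 1391 were called in iBAT, 564 in liver, 4254, 4449 and 4172 between tissues (iBAT minus iWAT, liver minus iWAT, liver minus iBAT) and 753, 253 and 1210 for genotype effects in the same order, and no filter gave 19932 between liver and iWAT. The 546 genes whose genotype effect differed between liver and iWAT became 300 with median-ratio scaling and 327 after rescaling.

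Leaving out each mouse in turn gave 0 to 1 members in iWAT, 4 to 5 in iBAT and 0 to 3 in liver, and 1 to 5 (iBAT minus iWAT), 0 to 1 (liver minus iWAT) and 1 to 3 (liver minus iBAT) for genotype effects. Small differences changed sign in these runs. They spanned -0.24 to 0.019 for Bscl2 in iWAT. In iBAT they spanned -0.10 to 0.0058 for Plin5, -0.019 to 0.13 for Cidec, -0.11 to 0.0024 for Bscl2, -0.11 to 0.019 for Fitm2 and -0.038 to 0.14 for Hilpda. In liver they spanned -0.22 to 0.10 for Plin2, -0.0031 to 0.26 for Plin3 and -0.20 to 0.087 for Plin5, and Hilpda ranged from -0.023 to 0.16 between liver and iBAT. Genotype effects did so for Bscl2 between iBAT and iWAT (-0.085 to 0.18), for Cideb (-0.041 to 0.63), Cidec (-0.45 to 0.34) and Fitm1 (-0.82 to 0.19) between liver and iWAT, and for Plin5 between liver and iBAT (-0.15 to 0.14). In liver the ratio of Plin5 to Plin2 spanned -0.18 to 0.19 and that of Plin2 to Plin1 -0.049 to 0.29.

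Signs also turned under other settings. In iWAT, Bscl2 was at 0.063 with lymphocyte and 0.13 with adipocyte markers, and Fitm2 at 0.010 with adipocyte markers. In iBAT, Fitm2 was at 0.011 with median-ratio scaling, Cidec at -0.16 with hepatocyte and -0.015 with muscle markers, and Hilpda at -0.37 with hepatocyte markers. In liver, median-ratio scaling gave 0.071 for Plin2 and 0.079 for Plin5, and rescaling gave 0.0073 for Plin5. Between iBAT and iWAT, median-ratio scaling gave 1.15 for Plin3, 0.15 for Bscl2 and 0.71 for Fitm2, rescaling gave 0.58 for Plin3 and 0.13 for Fitm2, and WT mice alone gave 0.039 for Plin3. Between liver and iWAT, median-ratio scaling gave 1.18 for Plin2 and 0.92 for Plin3, and Plin2 was at 0.027 after rescaling and 0.20 in WT mice alone. Between liver and iBAT, Hilpda was at -0.011 with median-ratio scaling and -0.555 after rescaling, Plin2 at 0.059 in WT mice alone and Plin3 at 0.14 in LFABP-/- mice alone. For the genotype effect between liver and iWAT, median-ratio scaling gave 0.0023 for Plin3, 0.12 for Cidec and 0.062 for Fitm2, and rescaling gave 0.019 for Cidec.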
